A study of Mus musculus with 12 samples.

Results

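The region examined was the stretch of mouse chromosome 3 that holds Il2 and Il21, taken as 200 kb to either side of the Il2 start site (chr3:36824881-37224881, mm9). Of the 118680 open chromatin regions that the study defined by ATAC-seq, 39 had their centre in this window. The rule that took them used position alone, although it was set with earlier results of these data known. In all, 4 groups of regulatory T cells (Treg) were compared, with 3 libraries each and 12 in all. WT Treg were YFP+ cells sorted from Foxp3-YFP-Cre mice, and Ikzf1-cko Treg were YFP+ cells sorted from Ikzf1-fl-Foxp3-YFP-Cre mice, in which Cre driven from Foxp3 removes Ikaros in Treg. All groups therefore carry the YFP-Cre allele, and the labels give spleen as the tissue. Cells were either lysed without stimulation, here called ex vivo, or after 4 hr on plate-bound anti-CD3 and anti-CD28, here called stimulated. The sample titles use ex vivo for both arms and add stimulated for the second. The sorted cells were split between both arms, and whether the unstimulated cells spent these hours in culture is not given in the sources used here. Each library was made from 100000 cells. The age of the mice used for these libraries, and whether cells of several mice were pooled, are not given in the sources used here.

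Il2 encodes interleukin-2, the growth factor that conventional T cells secrete within hours of activation and that Treg consume through the high-affinity receptor but do not normally make. Foxp3, together with NFAT and Runx1, is known to hold the Il2 promoter silent in Treg, and Ikaros, a zinc finger protein, is a known repressor of the same gene in T cells. Il21 encodes interleukin-21, a related cytokine made mainly by follicular helper and Th17 cells, which acts through a receptor that shares the common gamma chain with the IL-2 receptor. In ATAC-seq, Tn5 transposase cuts DNA that is not covered by nucleosomes, so that reads on a region measure how open it is. FPKM, the unit used for levels, is the number of reads on a region per kb of its length, scaled to a common number of reads counted over all regions of the library. Fold changes and p-values came from the read counts.

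Il2 lies on the minus strand, so that larger coordinates are upstream of it. Only 2 regions lay downstream of the Il2 start, at 62.3 and 69.1 kb, and the outermost 130.8 kb of the window on that side held none. The other 37 covered the Il2 start or lay upstream. They were 1 region over the Il2 start, 12 between Il2 and Il21, 3 in Il21 or at its start, and 16 upstream of Il21. The last 5 were at annotated transcript starts of Cetn4, Bbs12 and Fgf2 and in introns there. A start of any annotated transcript of a gene was counted, which need not be its main promoter. The Il2 and Il21 start sites are 106.7 kb apart, and 28 of the 39 regions were intergenic. Regions were 175 to 1383 bp long. Of the 39, 23 had at least 3.6 CPM (the same measure without the division by length) in at least 3 libraries and were tested together with all other such regions, 69957 in all. Of these 23, 12 reached that level in every library and 11 in some libraries only, so that for the 11 the groups in which a region was high could decide whether it was tested. The 16 that did not included the Il21 start region, both regions in the Il21 introns and the Adad1 start region.

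The sequences at the core of the results are those just upstream of both cytokine genes, the distal region between them, and the 2 regions whose accessibility fell most after stimulation of WT Treg. The promoters are the 250 bases before the RefSeq start on the minus strand, matched without mismatch to chr3:37024877-37025126 for Il2 and chr3:37131559-37131808 for Il21 in mm9 (RefSeq GRCm38.p6, chr3:37125955-37126204 and chr3:37232637-37232886). The others are the central 300 bases of each region on the plus strand of mm9: OCR_70751 at chr3:37104230-37104529, OCR_70769 at chr3:37191571-37191870 and OCR_70774 at chr3:37212500-37212799. Capitals mark, on either strand, the Ikaros core GGGAA, the NFAT core GGAAA and the AP-1 site TGANTCA.
Il2 promoter: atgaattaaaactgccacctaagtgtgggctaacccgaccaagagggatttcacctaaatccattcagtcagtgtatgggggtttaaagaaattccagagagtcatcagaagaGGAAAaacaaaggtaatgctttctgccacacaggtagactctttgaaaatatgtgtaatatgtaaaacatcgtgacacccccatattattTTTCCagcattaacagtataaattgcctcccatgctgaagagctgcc
Il21 promoter: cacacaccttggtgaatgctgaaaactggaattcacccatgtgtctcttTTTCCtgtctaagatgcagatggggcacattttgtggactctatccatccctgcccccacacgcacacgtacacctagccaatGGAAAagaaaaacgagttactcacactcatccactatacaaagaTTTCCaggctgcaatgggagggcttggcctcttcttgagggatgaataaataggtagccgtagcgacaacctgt
OCR_70751: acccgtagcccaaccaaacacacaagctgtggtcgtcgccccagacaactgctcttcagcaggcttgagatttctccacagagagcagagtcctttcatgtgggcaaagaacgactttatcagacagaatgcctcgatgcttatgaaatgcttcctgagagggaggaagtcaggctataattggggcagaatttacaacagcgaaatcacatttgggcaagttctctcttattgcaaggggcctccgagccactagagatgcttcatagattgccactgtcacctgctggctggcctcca
OCR_70769: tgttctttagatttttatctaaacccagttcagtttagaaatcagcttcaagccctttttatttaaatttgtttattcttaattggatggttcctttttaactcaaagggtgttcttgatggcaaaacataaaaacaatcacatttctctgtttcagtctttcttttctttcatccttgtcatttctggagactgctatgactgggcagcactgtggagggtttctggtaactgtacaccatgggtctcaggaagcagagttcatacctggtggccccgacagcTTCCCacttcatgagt
OCR_70774: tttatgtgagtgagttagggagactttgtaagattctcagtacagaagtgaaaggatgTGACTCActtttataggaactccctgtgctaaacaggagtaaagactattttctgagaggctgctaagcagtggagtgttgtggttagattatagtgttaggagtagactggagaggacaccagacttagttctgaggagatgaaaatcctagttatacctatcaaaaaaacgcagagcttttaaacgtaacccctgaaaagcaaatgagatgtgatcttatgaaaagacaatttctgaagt

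NFAT is the calcium-dependent factor that carries the T cell receptor signal to the Il2 promoter. Its core GGAAA was found 2 times in the Il2 promoter and 3 times in the Il21 promoter, and in 55.6% of 32851 mouse promoters of that length. GGGAA was found in neither promoter, and 56.2% of promoters held it. Within the central 300 bases, OCR_70774 held TGANTCA 1 time, which 14.3% of 118479 regions did, and OCR_70769 held GGGAA 1 time, within the longer TGGGAA. The distal region OCR_70751 held none of the 3 marked motifs. Over the 39 regions, GGGAA was present in 22 (56.4%, against 59.0% of all regions), GGAAA in 27 (69.2%, against 59.6%) and TGANTCA in 8 (20.5%, against 14.3%). The forkhead motif TGTTTA was in 8 regions (20.5%, against 14.2%) and the Runx motif TGTGGT in 13 (33.3%, against 26.0%). Such matches are a description of the letters only.

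Libraries held 4808916 to 15355521 counted reads, and every Ikzf1-cko library was deeper than every WT library. The stimulated WT libraries stood apart from the rest: 13.1% to 15.2% of their reads fell on regions that did not pass the filter, against 6.30% to 9.42% in the other 9 libraries. The part of this difference in the results that follow was not tested, and results are given beside the same value over all tested regions. Where a call of a region in the window changes, the value with a loess normalization that removes trends with abundance is given too. Calls at genes and windows elsewhere in the genome were not examined with it. The start regions of all 9 Treg and T cell markers passed the filter. None of 4 B cell genes and 1 of 4 myeloid genes (Cd14) had a start region in the set. Cd14 passed the filter at group means of 6.98 to 8.70 FPKM, a level near that of Foxp3 in ex vivo WT. Of 3 erythroid genes, Hbb-b1 had none, Gata1 did not pass the filter (8.53 ± 1.29 FPKM in ex vivo WT, SD, n = 3), and Klf1 passed it at group means of 14.6 to 18.5 FPKM, above Foxp3 in ex vivo WT (6.70 ± 0.487). Of 2 NK cell genes, Ncr1 had none and Klrb1c did not pass. Of the CD8 T cell genes, Cd8a did not pass the filter and Cd8b1 was at 13.4 ± 1.81 FPKM in ex vivo WT and 8.92 ± 0.174 in ex vivo Ikzf1-cko Treg. The part of other cells in the results was not tested. None of the 31 regions over Ikzf1 covered its last exon and all had at least 6 reads in every library, so that the regions do not show the deletion. Chromatin that is open in fewer cells and chromatin that is less open in each cell cannot be told apart here.

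The window as a whole held less signal in stimulated WT Treg than in any other group. The 39 regions together held 260 to 281 CPM in the ex vivo WT libraries, 219 to 233 in the stimulated WT libraries, 266 to 298 in the ex vivo Ikzf1-cko libraries and 255 to 294 in the stimulated Ikzf1-cko libraries. All 3 stimulated WT libraries were thus below the other 9. The lower sum came from the stronger regions. The 23 tested regions summed to 240 ± 9.78 CPM (SD, n = 3) in ex vivo and 186 ± 9.28 in stimulated WT Treg, whereas the 16 weak regions went from 32.3 ± 1.29 to 42.0 ± 3.98 CPM. In Ikzf1-cko Treg the same sums were 249 ± 14.2 and 244 ± 18.0 CPM for the tested regions and 30.3 ± 2.49 and 35.6 ± 3.18 CPM for the weak ones. Over all regions of the series, the share of reads on those that did not pass rose as well. Its mean went from 8.76% to 14.2% in WT and from 6.74% to 8.24% in Ikzf1-cko libraries. Regions of at least 20 CPM over the whole series had a median log2 fold change of -0.24 in WT. That of the 23 tested regions was -0.25, although only OCR_70750, OCR_70772 and OCR_70774 among them had a mean of at least 20 CPM. With the loess normalization the median of the 23 was -0.249, and that of all tested regions was -0.013. The part of the shift of reads over the whole series in the sums was not tested, and the sums are given without a test.

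**Figure D1:**
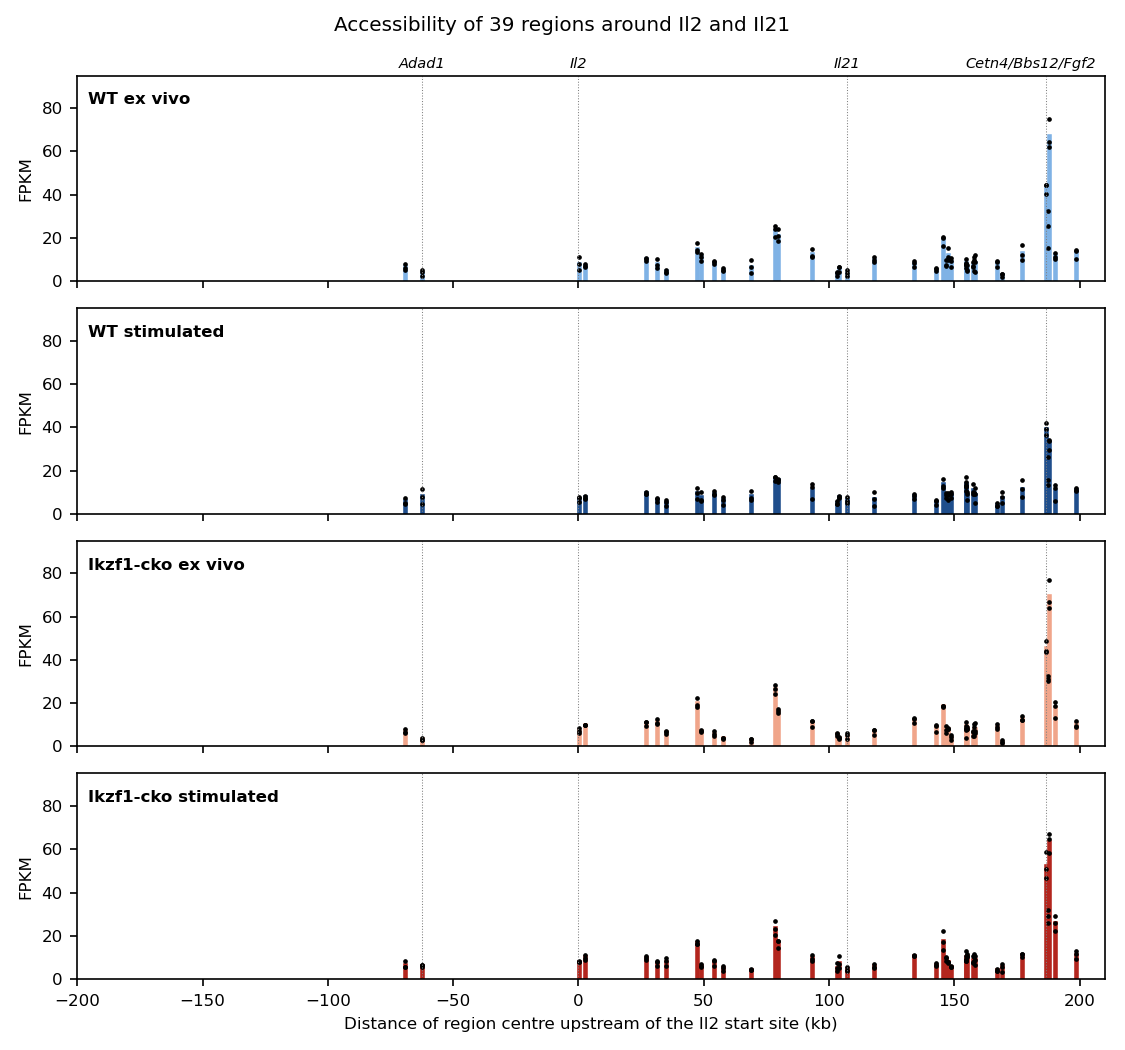
Accessibility (FPKM, y axis) of the 39 regions by distance upstream of the Il2 start site (kb, x axis) in the 4 groups. Bars are means of 3 libraries and dots are single libraries. The strongest region in 3 of the panels is OCR_70774, in annotated introns of Fgf2 and Bbs12. It is at 32.5 FPKM in stimulated WT Treg and at 63.3 to 69.3 FPKM in the other groups, while the Il2 and Il21 start regions stay below 12 FPKM in all libraries.

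The Il2 start region itself was weakly open in every group and showed no detectable response to stimulation. OCR_70740 (chr3:37024546-37025513, over the start site and the promoter printed above) had a mean of 7.63 FPKM over the 12 libraries. Of the 12697 gene start regions in the set, 18.2% had a lower mean, and their median was 21.5 FPKM. Its level was 5.17, 11.1 and 8.17 FPKM in the ex vivo WT libraries, on 26 to 81 reads. In the stimulated WT libraries it was 7.52, 7.74 and 5.37 FPKM. The spread was widest in ex vivo WT Treg, and its libraries enclosed all stimulated ones. In Ikzf1-cko Treg the level was 8.75, 7.36 and 6.27 FPKM ex vivo and 7.73, 8.52 and 7.84 FPKM after stimulation, again with overlap. In order of their means, ex vivo WT (8.14 FPKM), stimulated Ikzf1-cko (8.03), ex vivo Ikzf1-cko (7.46) and stimulated WT Treg (6.88) overlapped each with the next.

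No comparison of the Il2 start region passed the threshold in the quasi-likelihood test of edgeR (Benjamini-Hochberg adjusted over all 69957 regions). Stimulation changed it by a log2 fold change of -0.27 in WT (95% interval -0.72 to 0.17, adjusted p = 0.32) and of 0.09 in Ikzf1-cko Treg (-0.26 to 0.45, adjusted p = 0.73). The difference between both responses was 0.37 (-0.20 to 0.94, adjusted p = 0.43). Ikzf1-cko against WT gave -0.16 ex vivo (-0.53 to 0.22, adjusted p = 0.55) and 0.21 after stimulation (-0.22 to 0.64, adjusted p = 0.42). No interval reached a log2 change of 1 up or down, and smaller changes were not resolved at this depth. Replicate 2 of ex vivo WT, the highest library, decided the sign of 2 values: without it the response in WT was 0.00028 and the ex vivo difference between genotypes was 0.12.

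The Il21 start region was weaker still. OCR_70755 (chr3:37131673-37132088) began 133 bp upstream of the annotated Il21 start, and its mean was 4.95 FPKM, with 1.1% of gene start regions lower. It had 2.31, 5.41 and 3.64 FPKM in ex vivo WT, on 5 to 17 reads, and 5.17, 6.15 and 7.998 FPKM in stimulated WT Treg. In Ikzf1-cko Treg it had 5.32, 6.29 and 3.29 FPKM ex vivo and 3.91, 4.40 and 5.45 FPKM after stimulation. Stimulated WT Treg had the highest mean and ex vivo WT Treg the lowest, and neighbours in the order of means overlapped throughout. Since it did not pass the filter, it was tested only in the fit without a filter, over 118480 regions, where the response was 0.70 in WT (95% interval -0.07 to 1.48, adjusted p = 0.14) and -0.12 in Ikzf1-cko Treg (-0.77 to 0.53, adjusted p = 0.83). The difference of the responses was -0.82 with an adjusted p of 0.35.

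The 2 regions nearest to a known distal enhancer of Il2, which the study places 83 kb upstream, were more open than the Il2 start region in all groups. Neither region reached that point, and whether they are that enhancer was not tested. The region nearest to a point 83 kb upstream was OCR_70751 (chr3:37103963-37104797), centred 79.5 kb upstream, and OCR_70750 (chr3:37102882-37103830) adjoined it at 78.5 kb. OCR_70751 was at 24.2, 20.8 and 18.4 FPKM in ex vivo WT and 15.8, 16.2 and 14.9 FPKM in stimulated WT Treg, with no overlap. In Ikzf1-cko Treg it was at 17.5, 16.2 and 15.4 FPKM ex vivo and 14.2, 17.7 and 17.7 FPKM after stimulation, which overlapped. Its level in ex vivo WT was therefore the highest, and the other 3 groups could not be separated from each other. OCR_70750 followed another order. It was at 20.7, 25.4 and 24.3 FPKM in ex vivo WT and 15.2, 16.9 and 16.9 FPKM in stimulated WT Treg, and its 6 Ikzf1-cko libraries held 20.3 to 28.4 FPKM. Here stimulated WT Treg were below the other 3 groups.

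Both distal regions fell when WT Treg were stimulated. The log2 fold change was -0.41 ± 0.14 (SE, adjusted p = 0.018, edgeR) for OCR_70751 and -0.54 ± 0.13 (adjusted p = 0.0015) for OCR_70750. In Ikzf1-cko Treg the values were 0.01 (95% interval -0.23 to 0.26, adjusted p = 0.95) and -0.17 (-0.38 to 0.04, adjusted p = 0.24). The difference of the responses was 0.42 for OCR_70751 (0.04 to 0.80, adjusted p = 0.16) and 0.37 for OCR_70750 (0.02 to 0.72, adjusted p = 0.18), so that after adjustment neither response was shown to differ between genotypes. Ex vivo, OCR_70751 was lower in Ikzf1-cko Treg by -0.34 (adjusted p = 0.044), a call that held under only 11 of 22 alternatives, and OCR_70750 was not called (0.16, adjusted p = 0.30). After stimulation OCR_70750 was higher in Ikzf1-cko Treg by 0.53 (adjusted p = 0.0011) and OCR_70751 differed by 0.08 (adjusted p = 0.67). With a loess normalization against abundance the response of OCR_70751 in WT was -0.18 (adjusted p = 0.34) and that of OCR_70750 was -0.30 (adjusted p = 0.06), and the difference between genotypes at OCR_70750 after stimulation was 0.27 (adjusted p = 0.092), so these 3 calls depended on the scaling.

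**Figure D2:**
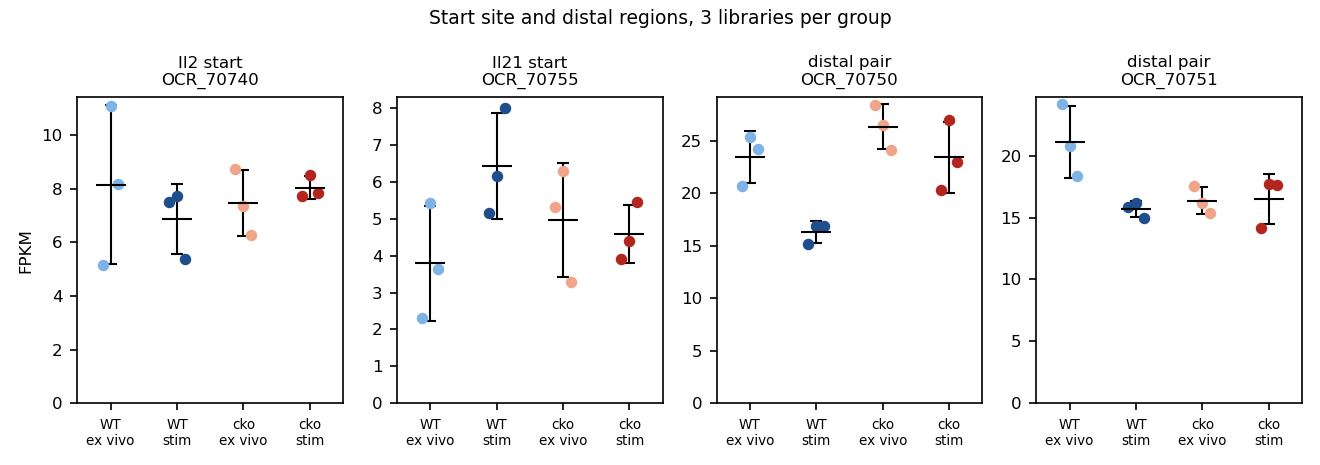
FPKM (y axis, from 0) of the Il2 and Il21 start regions and the 2 distal regions in each of 12 libraries (points), with the mean and SD of each group of 3 (bars). The groups overlap at both start sites, and ex vivo WT Treg, at 18.4 to 24.2 FPKM, lie above stimulated WT Treg, at 14.9 to 16.2 FPKM, at OCR_70751.

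Across the window, the tested regions that were called after stimulation were all lower. In WT Treg the share called lower at the adjusted p was near that of all tested regions, and no region was called higher. In WT Treg 6 of 23 regions passed an adjusted p of 0.05 and all 6 were lower (20.7% of all tested regions were called lower at that threshold and 26.9% higher). The 6 were OCR_70745 and OCR_70746, 47.4 and 48.8 kb upstream of Il2, the 2 distal regions, OCR_70769 and OCR_70774. With a log2 fold change beyond 1 required as well, 2 remained, OCR_70769 and OCR_70774, both lower (2.32% of all tested regions, and 17.7% higher). Both lay close to the fold threshold: without replicate 3 of stimulated WT they were at -0.94 and -0.99, and none passed it. In Ikzf1-cko Treg 2 of 23 were lower at the adjusted p alone and none higher (11.5% of all tested regions were lower and 12% higher), namely OCR_70743 (-0.58, adjusted p = 0.028) and OCR_70769, and OCR_70769 also passed the fold threshold (0.632% of all lower, 3.02% higher). OCR_70775 was higher in each stimulated than in each ex vivo Ikzf1-cko library but missed the adjusted p (0.53, adjusted p = 0.062). The libraries of the groups did not overlap in 7 of 23 regions in either genotype, against 54.0% of all tested regions in WT and 37.8% in Ikzf1-cko Treg. The median log2 fold change of the 23 regions was -0.25 in WT, against 0.04 over all tested regions and -0.24 over the 11696 regions of at least 20 CPM. In Ikzf1-cko Treg it was -0.04, against 0.06 and -0.02. With the loess normalization the median of the 23 was -0.249 in WT and -0.065 in Ikzf1-cko Treg, against -0.013 and 0.012 over all tested regions.

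OCR_70769 (chr3:37191458-37191984), an intergenic region 167 kb upstream of Il2 and 60.2 kb upstream of Il21, fell in both genotypes. In WT Treg it went from 8.76, 9.55 and 6.62 FPKM ex vivo to 3.45, 5.20 and 3.55 FPKM. In Ikzf1-cko Treg it went from 8.28, 8.96 and 10.4 FPKM to 4.73, 3.67 and 3.81 FPKM. All 6 stimulated libraries were below all 6 ex vivo libraries, and the region was tested only because of the ex vivo ones: it had 3.49 to 5.47 CPM ex vivo and 1.82 to 2.74 CPM after stimulation, against the 3.6 CPM of the filter. The log2 fold changes were -1.01 ± 0.29 in WT (SE, adjusted p = 0.0047, edgeR) and -1.17 ± 0.23 in Ikzf1-cko Treg (adjusted p = 0.00035), and the responses differed by -0.16 (95% interval -0.94 to 0.61, adjusted p = 0.83). With no filter, where the region does not depend on its own level to be tested, they were -1.01 (adjusted p = 0.0047) and -1.17 (adjusted p = 0.00052), and with the filter in all 12 libraries it was not tested. Stimulated libraries held 9 to 23 reads on it.

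The 16 weak regions could be tested only in the fit without a filter, and few were called. In that fit 2 were higher in stimulated WT Treg and none lower (32.3% of 118480 regions were called higher at an adjusted p of 0.05, and 12.4% lower), and 3 were higher in stimulated Ikzf1-cko Treg and none lower (11.7% and 6.61%). OCR_70770 (chr3:37193526-37193939), 2 kb further upstream than OCR_70769, rose from 1.86 to 3.52 FPKM in ex vivo WT to 4.85 to 10.0 FPKM, and from 1.65 to 2.81 FPKM to 3.37 to 7.13 FPKM in Ikzf1-cko Treg. Its log2 fold changes were 1.29 (adjusted p = 0.011) and 1.28 (adjusted p = 0.016), on 4 to 29 reads per library. The start region of Adad1, a gene of the testis, rose by 1.01 in WT (adjusted p = 0.018) and 0.95 in Ikzf1-cko Treg (adjusted p = 0.03). OCR_70754, in an Il21 intron, had 3.27 to 4.54 FPKM in ex vivo and 5.15 to 10.5 FPKM in stimulated Ikzf1-cko Treg (0.93, adjusted p = 0.041), and its response in WT was 0.47 (adjusted p = 0.31). Of the 16, 12 had a log2 fold change above 0 in WT and 9 in Ikzf1-cko Treg, and the share above 0 over all regions was not counted. The count in WT moves with the share of reads on such regions in the stimulated WT libraries given above, and the part of that share was not tested.

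**Figure D3:**
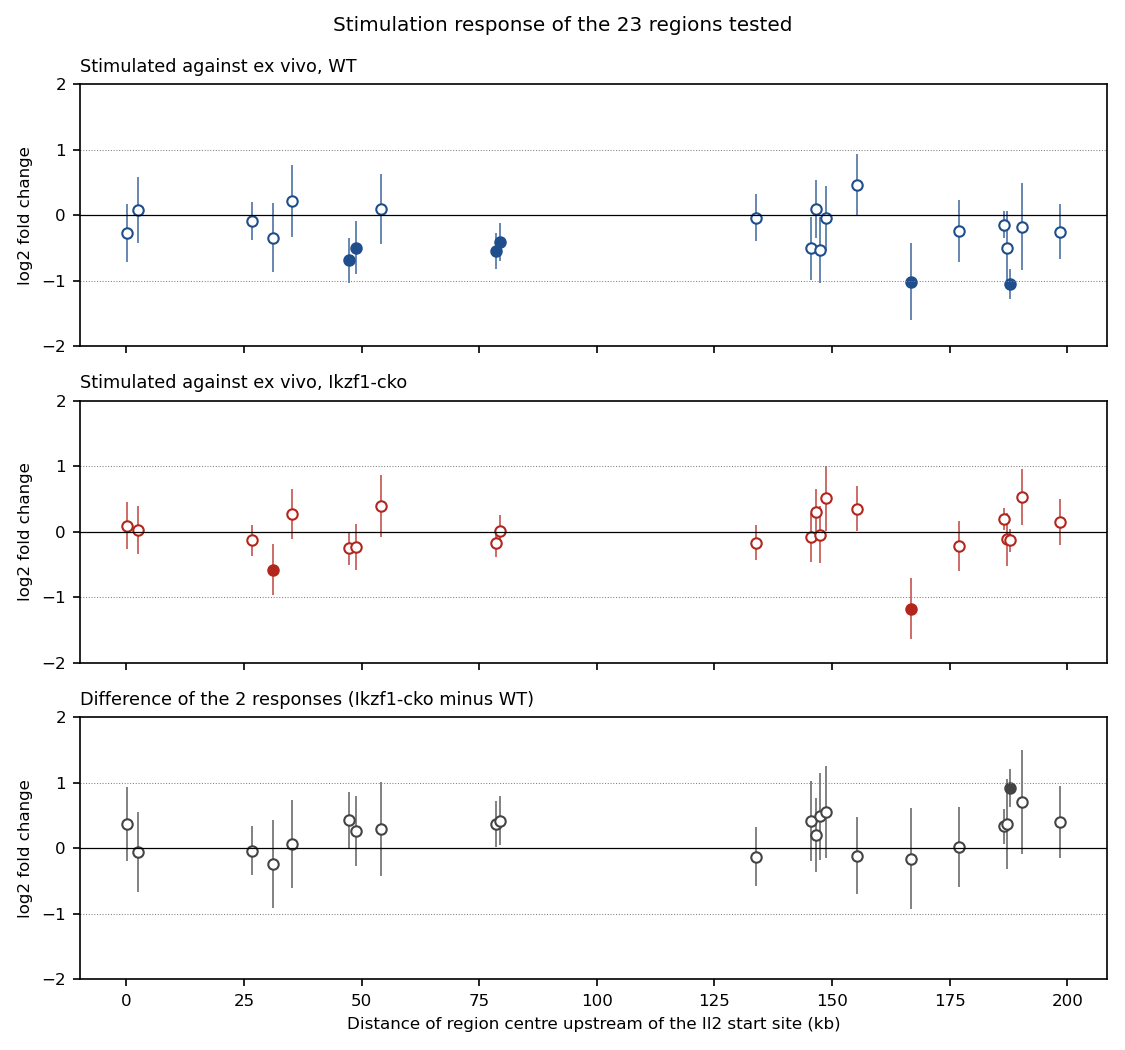
Log2 fold change (y axis, with 95% intervals) of the 23 tested regions by distance upstream of the Il2 start site (kb, x axis) for stimulation in WT Treg, stimulation in Ikzf1-cko Treg, and the difference of both responses. Filled points passed an adjusted p of 0.05 and dotted lines mark the fold threshold on either side. Of the filled points, 6 in the WT panel and 2 in the Ikzf1-cko panel are below 0, and 1 in the panel of differences, at 188 kb, is above it.

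The response to stimulation differed by genotype at 1 of the 23 regions. No region passed both thresholds in the test of the difference (1.98% of all tested regions did, 0.579% with a positive and 1.40% with a negative difference). OCR_70774 passed the adjusted p (7.48% of all, 5.66% positive and 1.82% negative). An unadjusted p below 0.05 was found at 5 of 23, and the share of all tested regions with such a p was not counted. OCR_70774 (chr3:37212325-37212976) lies 188 kb upstream of Il2 and 81.1 kb upstream of Il21, in introns of Fgf2, which encodes a fibroblast growth factor, and of Bbs12, which encodes a chaperonin-like protein of primary cilia. It was the most open region of the window in ex vivo Treg, with 62.3, 64.2 and 74.9 FPKM in WT and 77.1, 67.0 and 63.8 FPKM in Ikzf1-cko libraries. After stimulation it was at 33.7, 34.2 and 29.7 FPKM in WT and at 58.2, 64.6 and 67.0 FPKM in Ikzf1-cko libraries. The 3 stimulated WT libraries were below all others, and ex vivo the genotypes overlapped.

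In edgeR's test, OCR_70774 fell by 1.05 on the log2 scale in WT (SE 0.11, adjusted p = 1.2e-08) and changed by -0.13 in Ikzf1-cko Treg (95% interval -0.31 to 0.04, adjusted p = 0.27). The responses differed by 0.92 (95% interval 0.63 to 1.21, adjusted p = 0.00021). Between genotypes it differed by 0.04 ex vivo (95% interval -0.14 to 0.22, adjusted p = 0.77) and was 0.96 higher in stimulated Ikzf1-cko Treg (adjusted p = 7.9e-08), which fell just short of the fold threshold. With the loess normalization the difference of the responses was 0.70, the lowest of 21 alternatives, with an adjusted p of 0.0026. Over all regions of at least 20 CPM the median difference of the responses was 0.20, and over the 23 regions of the window it was 0.34, against 0.00 over all 69957. With the loess normalization the median was 0.23 over the 23 regions and 0.011 over all tested regions. Of the 23, 17 had a difference above 0, and the share of all tested regions above 0 was not counted. The regions around OCR_70774 were less marked: OCR_70772 (chr3:37210926-37211810), over annotated transcript starts of Cetn4, Bbs12 and Fgf2, had a difference of 0.34 (adjusted p = 0.11), OCR_70773 of 0.37 and OCR_70775 of 0.70 (95% interval -0.09 to 1.49, adjusted p = 0.27).

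The Il2 and Il21 parts of the window gave no called difference in response. Of the 10 tested regions within 100 kb of the Il2 start, none passed the adjusted p in this test. The largest were OCR_70745 (0.43, adjusted p = 0.20) and the distal region OCR_70751 (0.42, given above), and neither is shown to differ. Standard errors of the 23 differences were 0.13 to 0.39, widest for regions with few reads.

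Ex vivo, regions called between genotypes went in both directions, at about the share of all tested regions. At the adjusted p alone, 2 of 23 were higher and 3 lower in Ikzf1-cko Treg (8.78% and 12.7% of all tested regions), and with the fold threshold 1 was lower and none higher (4.04% and 0.588%). That region was OCR_70762 (chr3:37173212-37173795), intergenic, 149 kb upstream of Il2 and 42.0 kb upstream of Il21. It had 6.59, 9.30 and 10.8 FPKM in ex vivo WT and 4.35, 2.86 and 5.12 FPKM in ex vivo Ikzf1-cko Treg, without overlap. The log2 fold change was -1.15 ± 0.24 (SE, adjusted p = 0.00077, edgeR). It passed the filter through the WT libraries, at 3.85 to 6.28 CPM, while the ex vivo Ikzf1-cko libraries had 1.67 to 2.99 CPM. With no filter the adjusted p was 0.0013, and with the filter in all 12 libraries it was not tested. After stimulation it had 7.36, 10.0 and 9.26 FPKM in WT and 5.57, 5.58 and 6.27 FPKM in Ikzf1-cko Treg, again without overlap, and was lower by -0.60 (adjusted p = 0.044). The scaling on the weakest regions turned this last value to 0.62, the loess normalization gave -0.25 (adjusted p = 0.48), and without replicate 2 of ex vivo Ikzf1-cko or replicate 3 of ex vivo WT the ex vivo value was -0.95 or -0.99. The other 2 lower ex vivo were OCR_70746 (-0.58, adjusted p = 0.015, and -0.49, adjusted p = 0.054, with loess) and the distal OCR_70751. Higher were OCR_70757 (chr3:37158233-37159259), 27.2 kb upstream of Il21, by 0.56 (adjusted p = 0.0056), and OCR_70745 by 0.42 (adjusted p = 0.022). The median over the 23 regions was 0.07, against -0.13 over all tested regions, and the groups did not overlap in 12 of 23 (35.9% of all).

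OCR_70745 (chr3:37071768-37072736), between Il2 and Il21, was higher in Ikzf1-cko Treg under both conditions. It stood at 17.5, 14.6 and 13.3 FPKM in ex vivo and 6.83, 9.43 and 12.02 FPKM in stimulated WT Treg. The Ikzf1-cko libraries were at 22.2, 19.1 and 18.3 FPKM ex vivo and 16.2, 17.7 and 16.3 FPKM after stimulation. Stimulated WT Treg were again below every other group. Stimulation lowered it by 0.69 in WT, where the log2 fold change was -0.69 (adjusted p = 0.0016), and changed it by -0.25 in Ikzf1-cko Treg (adjusted p = 0.13). In its central 300 bases GGGAA was found 4 times, the most in any of the 39 regions, and TGANTCA 2 times. The mean over all regions was 0.924 for GGGAA, and the share with 4 matches was not counted. Of the other regions called higher in stimulated Ikzf1-cko Treg (listed below), OCR_70750, OCR_70757, OCR_70774 and OCR_70775 held no GGGAA. OCR_70744 held it 3 times, and OCR_70772 and OCR_70773 held it 1 time each.

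After stimulation 8 of 23 regions were higher and 1 lower in Ikzf1-cko Treg at the adjusted p (20.4% and 30.7% of all tested regions), and 1 was higher and none lower with the fold threshold (1.16% and 20.2%). Higher were OCR_70744 (0.61), OCR_70745 (0.85), OCR_70750 (0.53), OCR_70757 (0.43), OCR_70772 (0.41), OCR_70773 (0.66), OCR_70774 (0.96) and OCR_70775, and the region that was lower was OCR_70762. With the loess normalization OCR_70772 was at 0.07 (adjusted p = 0.57), OCR_70757 at 0.36 (adjusted p = 0.086) and OCR_70750 at the value given above. The median over the 23 was 0.23, against -0.11 over all tested regions and 0.34 over those of at least 20 CPM, and the groups did not overlap in 8 of 23 (57.2% of all). With the loess normalization the median was 0.29 over the 23 and 0.016 over all tested regions. The ex vivo and stimulated comparisons of genotype share no libraries, but both share libraries with the responses described above.

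OCR_70775 (chr3:37215069-37215285), a short region in the introns of Fgf2 and Bbs12, passed both thresholds. It was tested only because of the Ikzf1-cko libraries, of which 5 reached 3.6 CPM, while the 6 WT libraries had 1.32 to 2.91 CPM. It had 6.10, 11.8 and 13.4 FPKM in stimulated WT Treg, on 8 to 14 reads, and 22.0, 29.1 and 26.1 FPKM in stimulated Ikzf1-cko Treg. Ex vivo it had 13.3, 10.4 and 11.3 FPKM in WT and 18.9, 20.8 and 13.4 FPKM in Ikzf1-cko Treg. The lowest of the 6 Ikzf1-cko libraries, at 13.4 FPKM, was level with the highest of the 6 WT libraries. The log2 fold change was 1.33 ± 0.28 after stimulation (SE, adjusted p = 0.00022, edgeR) and 0.63 ± 0.26 ex vivo (adjusted p = 0.074). With no filter the value after stimulation was 1.33 with an adjusted p of 0.00027, and with the filter in all 12 libraries the region was not tested.

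**Figure D4:**
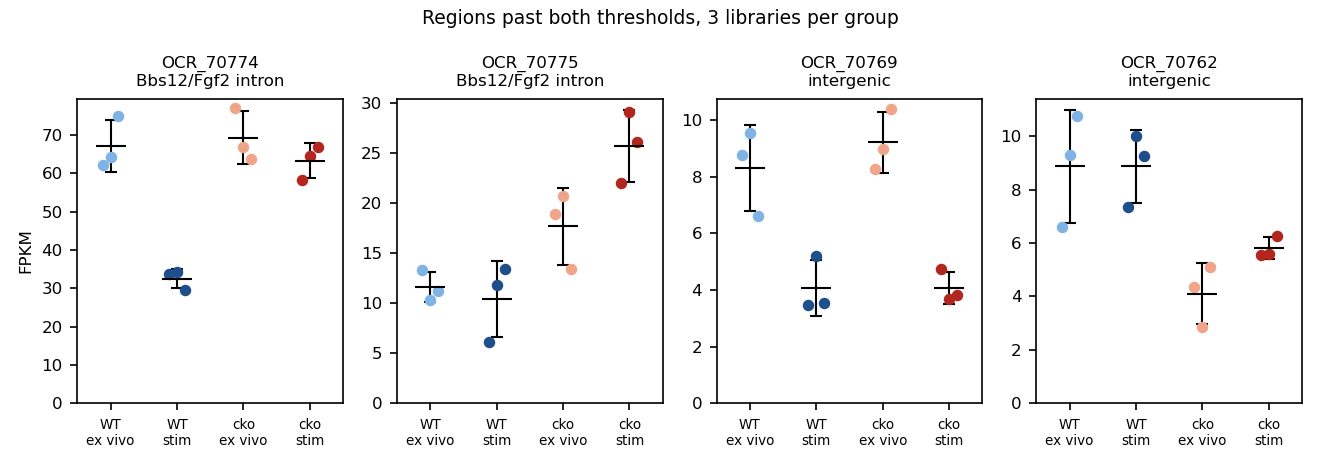
FPKM (y axis, from 0) of the 4 regions that passed both thresholds in at least 1 comparison, in each of 12 libraries (points), with the mean and SD of each group of 3 (bars). OCR_70774 is low only in stimulated WT Treg (29.7 to 34.2 FPKM), OCR_70769 falls in both genotypes, OCR_70762 is lower in Ikzf1-cko Treg and OCR_70775 is higher in stimulated Ikzf1-cko than in stimulated WT Treg. Of the 4, only OCR_70774 reached the filter level in all 12 libraries.

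For comparison, windows of the same width were taken around 2 other cytokine genes. Around Ifng, which encodes interferon-gamma, 23 of 35 regions were tested, and 6 were lower and none higher in stimulated WT Treg, the same counts as around Il2 (20.7% and 26.9% of all tested regions). Around Il4, which encodes the Th2 cytokine interleukin-4, 29 of 38 were tested, and 7 were higher and 2 lower. The response differed by genotype at 2 tested regions around Ifng, both with a positive difference, and at none around Il4 (edgeR, adjusted p below 0.05, 7.48% of all tested regions). The median difference of the responses was 0.11 around Ifng and 0.06 around Il4, against 0.34 around Il2, and these medians were not compared by a test.

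The receptors and signal proteins through which IL-2 and IL-21 act are coded elsewhere in the genome, and their start regions were called after stimulation of WT Treg about as often as all tested regions. Of 24 genes of the common gamma chain family and its pathway, 21 had a tested start region. Il4 and Il9 had no start region in the set, and Il21 did not pass the filter. In stimulated WT Treg 3 were higher and 6 lower, against 26.9% and 20.7% of all tested regions (edgeR, adjusted p below 0.05). In stimulated Ikzf1-cko Treg 3 were higher and 4 lower, against 12% and 11.5%. Il7r, the receptor chain for IL-7 that resting T cells carry, fell by 1.09 on the log2 scale in WT (adjusted p = 3e-06), and its responses differed by 0.91 (adjusted p = 0.0036). Stat5a, which transmits the IL-2 signal, was called higher in both genotypes, by 1.23 ± 0.42 in WT (SE, adjusted p = 0.016) and 0.91 ± 0.32 in Ikzf1-cko Treg (adjusted p = 0.036). Its region lay 186 bp from the start. It was at 8.32 ± 4.68 FPKM (SD, n = 3) in ex vivo WT and 18.4 ± 6.31 in stimulated WT Treg. Whether it passed the filter only through the groups where it was high was not examined. Of the chains of the IL-2 receptor itself, Il2rb, the beta chain, fell by 0.44 in WT and 0.26 in Ikzf1-cko Treg on the log2 scale. Il2rg, the common gamma chain, fell by 0.50 in WT, and Il2ra, the alpha chain CD25, was not called in either. Whether these receptor calls hold with the loess normalization was not examined. In the comparison of genotypes, 6 were higher and none lower in Ikzf1-cko Treg ex vivo (8.78% and 12.7% of all tested regions), and 8 were higher and 1 lower after stimulation (20.4% and 30.7%). The median after stimulation was 0.25 on the log2 scale, against 0.18 over all 11799 tested start regions and 0.34 over regions of at least 20 CPM.

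The start regions of regulators of Il2 transcription were called after stimulation at a share near that of all tested regions in WT Treg. All 26 genes of that list had a tested start region, of which 7 were higher and 6 lower in stimulated WT Treg (26.9% and 20.7% of all) and 9 higher and 2 lower in stimulated Ikzf1-cko Treg (12% and 11.5%). Foxp3 rose by 1.11 in WT (adjusted p = 6.4e-05) and 0.49 in Ikzf1-cko Treg (adjusted p = 0.015). Jun, a subunit of AP-1, fell by 0.85 in WT and 0.32 in Ikzf1-cko Treg, and these responses differed by 0.53 (SE 0.08, adjusted p = 0.00026). Fosb and Jund, other AP-1 subunits, and Rela, a subunit of NF-kappaB, rose in both. The difference of the responses passed the adjusted p at 3 of the 26, all positive (7.48% of all tested regions, 5.66% positive and 1.82% negative). Ikzf1-cko Treg were higher at 8 of 26 ex vivo and at 19 of 26 after stimulation, and lower at none. Of all tested regions 8.78% were higher and 12.7% lower ex vivo, and 20.4% were higher and 30.7% lower after stimulation. The list's median after stimulation was 0.29, between the medians of all start regions and of all regions of at least 20 CPM given above. The start region of Rel, which encodes the NF-kappaB subunit c-Rel that Il2 needs, was higher by 0.41 ex vivo and 0.38 after stimulation. Whether the calls of this list hold with the loess normalization was not examined.

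The start regions of other genes were ranked by how closely their levels followed those of Il2 and Il21 over the 12 libraries. For Il2, the highest Pearson correlations of log2(CPM + 1) among 11798 genes were with Gstt1 (r = 0.89), Sbds (0.78), S100a11 (0.76), Zfml (0.75) and Det1 (0.75). For Il21, among 11799 genes, they were with Pnpla8 (0.83), Coch (0.82), Ankrd33b (0.81), St14 (0.78) and Ociad2 (0.77). These are the tops of long lists over 12 libraries that share depth and preparation, and they are given as a description.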

How the data were processed

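ATAC-seq regions of 12 libraries were assigned to groups by the sample labels. The authors aligned reads with bowtie2, removed duplicates and blacklisted regions, called peaks per replicate with MACS2 and merged those found in at least 2 replicates. The build is mm9 per the submitters' processing notes, although the methods print a human build. The authors deposited the count of de-duplicated reads per region, without normalization. In the deposited FPKM that count is scaled to 1 kb of region and to the library total, and a deposited log2 of the FPKM was not used. A second deposited table holds only the authors' own comparisons and was not used.

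Counts were tested with edgeR 4.0.16 in R 4.3.3 (glmQLFit, glmQLFTest), scaled by library totals, in 1 model of 4 group means over all 12 libraries, for the 69957 regions that reached 3.6 CPM (reads scaled to library total) in 3 or more libraries. Called means a Benjamini-Hochberg FDR under 0.05, with an absolute log2 fold change over 1 where both thresholds are named. The difference of responses is Ikzf1-cko (stimulated minus ex vivo) minus WT (stimulated minus ex vivo). Standard errors are the log2 fold change over the square root of F. The methods call the 3 libraries of a group biological replicates, and whether each came from a separate mouse is not given in the sources used here. Replicates of a group differed by more than counting noise (chi-square per degree of freedom 1.19 to 3.35).

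Regions named were the Il2 and Il21 start regions, the region nearest 83 kb upstream of Il2, regions past both thresholds, the 3 with the highest mean CPM (OCR_70772, OCR_70774 and OCR_70750) and those over other start sites. Others past the adjusted p, OCR_70770 and OCR_70754 were named after their values were seen. The members and gene lists were chosen with earlier results of these data known. Alternatives were TMM, loess against abundance, scaling on the weakest 20% of regions, DESeq2 1.42.0, limma 3.58.1, 2 other filters, the compared groups alone, a replicate block, thinned counts, the FDR alone, a 100 kb window and each replicate left out. Simulated counts for 69957 regions were used as a check, with 200 of them moved by 2 on the log2 scale in the stimulated WT libraries. The fit recovered 194 for stimulation in WT with 6 false calls, and 179 for the difference of responses with 8. All simulated regions had the same dispersion, and the shift of reads to weak regions was not simulated. The check therefore does not show how well smaller changes, such as those reported here, are recovered. Annotation was GENCODE vM1 on NCBIM37, and promoters came from RefSeq. The study's own normalization used background bins, for which no reads are at hand. Python 3.11.15, pandas 2.3.3, NumPy 2.4.6 and Matplotlib 3.10.9 were used.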

Additional observations from a re-analysis of the deposited data

Results flagged for a closer look

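OCR_70774, in introns of Fgf2 and Bbs12, stood out because its response to stimulation differed between genotypes: the log2 fold change in Ikzf1-cko Treg was 0.91716 above that in WT Treg (SE 0.14, edgeR adjusted p = 0.00021). All 3 stimulated WT libraries (29.7 to 34.2 FPKM) were below the other 9 (58.2 to 77.1 FPKM). In the same libraries 13.1% to 15.2% of reads fell on regions that did not pass the filter, against 6.30% to 9.42% in the others, and the part of that in the difference was not tested. Under 21 alternatives the difference was 0.70 to 1.60 with adjusted p of 1.6e-05 to 0.0033.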

How the results depend on the processing

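Counts of regions past both thresholds were 2, 1, 1, 1 and 0 for stimulation in WT, stimulation in Ikzf1-cko, Ikzf1-cko against WT ex vivo, the same after stimulation, and the difference of responses. They were the same with the replicate block (2, 1, 1, 1 and 0). The block was not read as a pairing, since whether same-numbered libraries share a mouse or sort is not given. Such libraries deviated together in 6 of 18 pairs (r over 0.1, range -0.36 to 0.28). Many of these pairs cross genotypes, so this does not decide whether the arms were paired. For stimulation in WT the count was 1 with loess, limma, thinned counts or the filter in all 12 libraries, 4 without a filter, 0 within 100 kb, and 0 to 2 with a replicate left out: 0 without replicate 3 of stimulated WT, and 1 without any ex vivo WT replicate or replicate 1 of stimulated WT. For stimulation in Ikzf1-cko it was 0 with limma, the filter in all 12 or within 100 kb, and 2 without a filter. Ex vivo it was 0 with loess, limma, thinned counts, the filter in all 12 or within 100 kb, 2 without a filter, and 0 to 1 with a replicate left out (0 without replicate 3 of ex vivo WT or 2 of ex vivo Ikzf1-cko). After stimulation it was 2 with TMM or DESeq2, 0 with the filter in all 12 or within 100 kb, and 1 to 2 with a replicate left out. For the difference of responses it was 0 to 1 with a replicate left out, and DESeq2 gave an adjusted p for only 7 of 23 regions. With the FDR alone the counts were 6, 2, 5, 9 and 1. Scaling on the weakest 20% of regions gave 19 (WT), 4 (ex vivo), 20 (after stimulation) and 12 (difference), since it moves the median of all regions to -1.03, 0.41, 1.11 and 0.68, against -0.34 for stimulation in Ikzf1-cko. Of 23 calls of single regions at the adjusted p, 9 held under every alternative. The Il2 start region, not called in the main fit, passed the adjusted p under 1 of 22 alternatives for stimulation in WT and between genotypes after stimulation. It did so under 1 of 20 for the difference of responses. The extreme values of these were -1.34, 1.44 and 1.02. OCR_70751 likewise passed under 1 of 22 between genotypes after stimulation and 1 of 21 for the difference. These signs turned, in most cases for values within their intervals of 0. The Il2 start region in stimulated Ikzf1-cko was -0.32 with the weakest 20% and -0.052 thinned, and ex vivo between genotypes 0.42 with the weakest 20%. The distal OCR_70751 in stimulated Ikzf1-cko was -0.049 with TMM, -0.39 with the weakest 20%, -0.016 with DESeq2 and -0.063 thinned, ex vivo between genotypes 0.21 with the weakest 20%, and after stimulation -0.11 with loess. OCR_70762 after stimulation was 0.62 with the weakest 20%, and OCR_70774 ex vivo was -0.075 with loess. With a replicate left out, the Il2 start region ranged from -0.46 to 0.00028 (WT), -0.0088 to 0.23 (Ikzf1-cko) and -0.35 to 0.12 (ex vivo), OCR_70751 from -0.041 to 0.11 (Ikzf1-cko), and OCR_70774 from -0.046 to 0.13 (ex vivo). Apart from the scaling shift given, the cause was not tested. The Il21 start region held 5 to 36 reads per library, and the members of the window 4 to 772.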
